A study of Homo sapiens with 4 samples.

Results

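The ERV1 family comprises the class I endogenous retroviruses, gammaretrovirus-like sequences that became fixed in the primate germ line. The regions described here lie on the strand of an ERV1 copy in NCI-H1944 cells, an established line of human lung adenocarcinoma labelled as wild type. They were chosen as the genomic regions, in each of 2 tables of read counts, whose every repeat name belonged to the ERV1 family, leaving out the names HERVH-int and those starting with HERV9, LTR7 or LTR12. The last condition also removed 11 ERV1 names from LTR70 upwards, which start with the same letters as LTR7. Of 298 ERV1 names, 271 remained, 63 of internal parts (ending in -int) and 208 of long terminal repeats (LTRs). They gave 42979 of the 3814162 regions of the J2 table and 22992 of the 2310971 regions of the Input table. A read that fell in a region carrying several of these names, as 2092 J2 and 1167 Input regions did, was counted once in totals and once for each name.

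Cells of the MPS1i groups received BAY-1217389 at 100 nM for 48 h and were then grown without drug for 24 h, and cells of the DMSO groups received the solvent in its place. BAY-1217389 inhibits MPS1 (TTK), a kinase of the spindle checkpoint that holds back chromosome separation until every chromosome is attached. The J2 antibody, which recognises RNA duplexes (double-stranded RNA, dsRNA), was used to pull down RNA from the lysate, and 10% of the lysate served as total RNA (Input). The 4 groups were MPS1i J2, DMSO J2, MPS1i Input and DMSO Input, with 1 library in each, so every value below compares libraries and has no replicate check, and no p-value was computed. In such bulk libraries fewer cells with a transcript and less of it per cell cannot be told apart.

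A complete ERV1 provirus consists of an internal part, which once coded for the viral proteins, between a pair of LTRs. Recombination between the LTRs has left most copies as solitary LTRs. An LTR can act as a promoter or enhancer of neighbouring sequence, and some ERV1 LTRs are known to bind p53. Cells normally keep such copies silent through DNA and histone methylation. Transcripts from both strands of a copy, or from inverted copies in 1 transcript, can pair into dsRNA, the kind of RNA that the sensors MDA5 and PKR recognise and that elicits an interferon response.

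The libraries held 6697479 counts for MPS1i J2, 9793355 for DMSO J2, 4844956 for MPS1i Input and 6381610 for DMSO Input. Mitochondrial regions took 0.836% and 0.608% of the MPS1i J2 and DMSO J2 counts, and 20.2% and 24.3% of the MPS1i Input and DMSO Input counts. Regions lying on the strand of an annotated gene held less of the reads in MPS1i J2 (61.1%) than in DMSO J2 (72.8%), and less in MPS1i Input (68.8%) than in DMSO Input (78.0%). As a check of the cell label, regions nearest to 8 lung epithelial genes, keratins KRT8 and KRT18 among them, held 705 counts in MPS1i J2, 908 in DMSO J2, 4598 in MPS1i Input and 4085 in DMSO Input. KRT8 alone held 4154 of the 4598 and 3666 of the 4085 in Input. Counts were low for EPCAM (6 in MPS1i J2, 22 in DMSO J2, 1 in MPS1i Input and 19 in DMSO Input). They were also low for KRT19 (2 in MPS1i J2, 0 in DMSO J2, 4 in MPS1i Input and 5 in DMSO Input). NKX2-1, a lung lineage factor, had 3 counts in MPS1i J2 and 0 in each of the other libraries. Regions nearest to 4 fibroblast genes held 661 counts in MPS1i J2, 39 in DMSO J2, 333 in MPS1i Input and 42 in DMSO Input, and FAP alone held 646 of the 661 and 36 of the 39 in J2. Of 3 leukocyte genes, PTPRC had 22 counts in MPS1i J2, 9 in DMSO J2, 14 in MPS1i Input and 1 in DMSO Input. CD14 had 81, 34, 26 and 22 in MPS1i J2, DMSO J2, MPS1i Input and DMSO Input, and CD3E had 11, 1, 4 and 0 in the same order. The part of these markers in the ERV1 values was not tested.

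The files hold positions but no sequence, so the sequences shown are RefSeq promoters (GRCh38.p14, 250 bases before to 50 after an annotated start) chosen for their place beside or inside ERV1 regions that the results turn on. Each runs 5′ to 3′ on the minus strand, with the 50 bases from the annotated start onwards in capitals. The first, chr2:6840415-6840714, is that of NRIR, a long noncoding RNA known as a negative regulator of the interferon response, whose start lies 207 bases upstream of the HUERS-P3-int region that was among the most increased after MPS1i. The second, chr1:19295687-19295986, is that of LOC100506730 and lies inside an ERV1 region made of HUERS-P3-int and LTR9D, on the same strand. The third, chr7:134554522-134554821, is that of LOC105375520 and lies inside the most-read HERVS71-int region, on the opposite strand to the reads counted there.
NRIR: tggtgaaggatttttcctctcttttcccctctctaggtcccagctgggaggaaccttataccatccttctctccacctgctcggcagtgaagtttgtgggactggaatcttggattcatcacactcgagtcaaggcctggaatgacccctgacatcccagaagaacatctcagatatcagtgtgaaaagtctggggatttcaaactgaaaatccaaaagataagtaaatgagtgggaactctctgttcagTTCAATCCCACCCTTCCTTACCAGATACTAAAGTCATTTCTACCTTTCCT
LOC100506730: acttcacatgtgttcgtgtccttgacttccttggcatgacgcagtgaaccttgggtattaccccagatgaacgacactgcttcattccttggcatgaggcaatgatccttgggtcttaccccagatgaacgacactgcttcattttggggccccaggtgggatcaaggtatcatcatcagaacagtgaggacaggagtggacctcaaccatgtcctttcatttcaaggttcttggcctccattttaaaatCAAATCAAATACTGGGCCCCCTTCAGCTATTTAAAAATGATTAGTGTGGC
LOC105375520: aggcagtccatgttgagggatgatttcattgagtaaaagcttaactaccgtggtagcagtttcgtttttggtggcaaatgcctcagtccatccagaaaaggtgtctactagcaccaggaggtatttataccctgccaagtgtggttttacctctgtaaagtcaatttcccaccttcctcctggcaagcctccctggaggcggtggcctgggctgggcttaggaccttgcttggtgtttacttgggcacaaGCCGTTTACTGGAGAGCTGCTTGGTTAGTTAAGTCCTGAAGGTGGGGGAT
None of the 3 held the letters TTCNNNGAA, the gamma-activated site (GAS), or the core of the interferon-stimulated response element (ISRE), on either strand, with overlapping matches allowed. Over all 35116 RefSeq promoters of this length, 7.66% held the first and 3.57% the second. The region around the LOC100506730 start (chr1:19294275-19295997, minus strand) had 304 counts in MPS1i J2 and 621 in DMSO J2, a log2 ratio of −0.48 that did not reach 2-fold.

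In both the J2 and the Input comparison the ERV1 regions took a larger share of the reads after MPS1i. The J2 regions held 55321 counts in MPS1i J2, or 0.826% of the library, against 58397 counts or 0.596% in DMSO J2. The log2 ratio of counts scaled to a common library total (CPM) was 0.47, with an exact 95% counting interval of 0.45 to 0.49. The Input regions held 37642 counts in MPS1i Input, or 0.777% of the library, against 32872 counts or 0.515% in DMSO Input, a log2 ratio of 0.59 (0.57 to 0.61). These intervals cover counting error only. Regions without any repeat had log2 ratios of 0.00 in J2 and −0.07 in Input. Another scaling of the libraries, by TMM factors, adds 0.19 to every log2 ratio between the J2 libraries and takes 0.06 from every ratio between the Input libraries.

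Summed over all places, the opposite strand of the ERV1 copies had no such increase. Regions that HOMER's annotation places in a copy of the same ERV1 names, but for which the files name no repeat on the region's own strand, held 61013 counts in MPS1i J2 and 99776 in DMSO J2, a log2 ratio of −0.16, which was 0.03 with TMM factors. In Input such opposite-strand regions held 31873 counts in MPS1i Input and 44585 in DMSO Input, a log2 ratio of −0.09. With ERV1 copies counted on either strand, the log2 ratio was 0.06 in J2 and 0.16 in Input. These sums varied with place. Opposite-strand regions that lay on the strand of a gene, which held 79587 of the 99776 DMSO J2 counts, had −0.45 in J2 and −0.40 in Input. Those outside genes had 0.57 in J2 and 0.72 in Input. Those that lay opposite a gene had 2213 counts in MPS1i J2 and 1430 in DMSO J2 (1.18), and 1204 in MPS1i Input and 837 in DMSO Input (0.92).

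The number of J2 ERV1 regions with a read was 12971 in MPS1i J2 and 8732 in DMSO J2, although the MPS1i J2 library was the smaller. In Input it was 4836 in MPS1i Input and 6301 in DMSO Input. Over all regions, those with a read numbered 1176736 in MPS1i J2 and 1208576 in DMSO J2. In Input they numbered 484849 in MPS1i Input and 940751 in DMSO Input, a larger fall than that of the ERV1 regions. Counting at most 1 read per region and library, the log2 ratio was 0.61 in J2. By chromosome the J2 ratio was lowest for chromosome 15 at −0.45 (671 counts in MPS1i J2 and 1339 in DMSO J2) and highest for chromosome 4 at 0.94 (7633 in MPS1i J2 and 5811 in DMSO J2).

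The ratios differed with the place of a region relative to genes. Regions outside annotated genes held 26360 counts in MPS1i J2 and 19976 in DMSO J2, a log2 ratio of 0.95 (0.92 to 0.97), and 14499 counts in MPS1i Input and 9921 in DMSO Input, a ratio of 0.94 (0.91 to 0.98). Regions opposite a gene held 8298 counts in MPS1i J2 and 6086 in DMSO J2, a ratio of 1.00 (0.95 to 1.04), and 9806 in MPS1i Input and 5609 in DMSO Input, a ratio of 1.20 (1.16 to 1.25). Regions on the strand of a gene had ratios near no change: 20663 counts in MPS1i J2 and 32335 in DMSO J2 gave −0.10, which TMM factors turn to 0.10, and 13337 in MPS1i Input and 17342 in DMSO Input gave 0.02, which TMM factors turn to −0.04.

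Sequence without repeats had a smaller ratio than the ERV1 regions in each place. Outside genes its log2 ratio was 0.68 in J2 and 0.71 in Input, opposite a gene 0.70 and 0.40, and on the strand of a gene −0.20 in each. The ERVL, ERVL-MaLR and ERVK families together had 0.52 in J2 and 0.64 in Input outside genes, and 0.99 and 0.81 opposite a gene. On the strand of a gene these families had −0.16 in J2 and 0.06 in Input, where the ERV1 regions had −0.10 and 0.02. The interval of these families in J2 outside genes was 0.51 to 0.53, below that of the ERV1 regions. Opposite a gene, at 0.95 to 1.02, it overlapped that of the ERV1 regions. A single LTR48B region held much of the Input counts opposite a gene, and without it the ERV1 ratio there was 0.84 (0.78 to 0.90). A single region of MER4E1 and MER57B1 held 3412 of the 8298 MPS1i J2 counts and 3027 of the 6086 DMSO J2 counts opposite a gene. Its own J2 ratio was 0.72, and its Input counterpart held 2375 counts in MPS1i Input and 1696 in DMSO Input. The ERV1 ratios opposite a gene without this region were not computed.

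**Figure D1:**
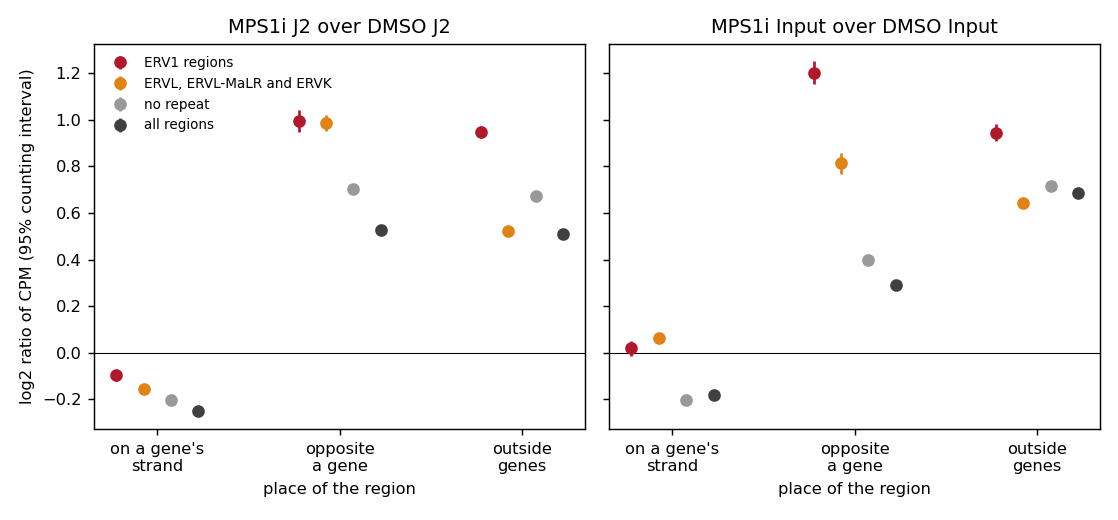
Log2 ratio of CPM (vertical axis) of regions on a gene's strand, opposite a gene and outside genes, for MPS1i J2 over DMSO J2 (left) and MPS1i Input over DMSO Input (right). Points are ratios of summed counts, bars are exact 95% counting intervals (often smaller than the point), and colours give ERV1 regions, the other ERV families, sequence without repeats and all regions. The ERV1 points lie at 0.95 and 0.94 outside genes, above the other groups, and near 0 on a gene's strand.

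Internal parts had higher ratios than LTRs in J2. Their regions held 17278 counts in MPS1i J2 and 14253 in DMSO J2, a log2 ratio of 0.83 (0.79 to 0.86), and 8825 counts in MPS1i Input and 6827 in DMSO Input, a ratio of 0.77 (0.72 to 0.81). LTR regions held 33452 counts in MPS1i J2 and 38908 in DMSO J2, a ratio of 0.33 (0.31 to 0.35), and 27305 in MPS1i Input and 24617 in DMSO Input, a ratio of 0.55 (0.52 to 0.57). The counting intervals of the 2 roles did not overlap in either table. On the strand of a gene the internal parts had 0.30 and the LTRs −0.31 in J2 (0.50 and −0.11 with TMM factors). Opposite a gene the internal parts reached 1.86 in J2, from 1141 counts in MPS1i J2 and 458 in DMSO J2, and 1.51 in Input, from 581 counts in MPS1i Input and 268 in DMSO Input.

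A name was called higher or lower when its 2 libraries together held at least 50 counts, the CPM ratio was at least 2-fold and the counting interval excluded a ratio of 1. In J2, 223 of the 271 names could be tested, and 50 (22.4%) were higher and 2 (0.897%) lower in MPS1i J2. Over all 1437 repeat names tested by the same rule, the ERV1 names among them, 8.21% were higher and 5.15% lower. The median log2 ratio was 0.52 for the ERV1 names and 0.09 for all repeat names. In Input, 193 names could be tested, and 57 (29.5%) were higher and 2 (1.04%) lower in MPS1i Input. The background there was 11.5% higher and 4.25% lower of 1224 repeat names, and the medians were 0.61 and 0.17. The names left untested had too few counts, and 3 names in J2 and 5 in Input had no read at all.

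Of the internal parts tested in J2, 18 of 56 were higher and 0 lower, and 52 had a ratio above no change. Of the LTRs, 32 of 167 were higher and 2 lower. In Input 13 of 50 internal parts were higher and 1 lower, against 44 of 143 LTRs higher and 1 lower. The names tested in both tables numbered 192, of which 22 were higher in both, 0 were lower in both and 1 was called in opposite directions. Both ratios were above no change for 148 names and below it for 16. As a description, Pearson's r between the J2 and Input log2 ratios was 0.503 and Spearman's rho 0.507 over these names, which share the libraries of the same cells and, for many names, the same copies.

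**Figure D2:**
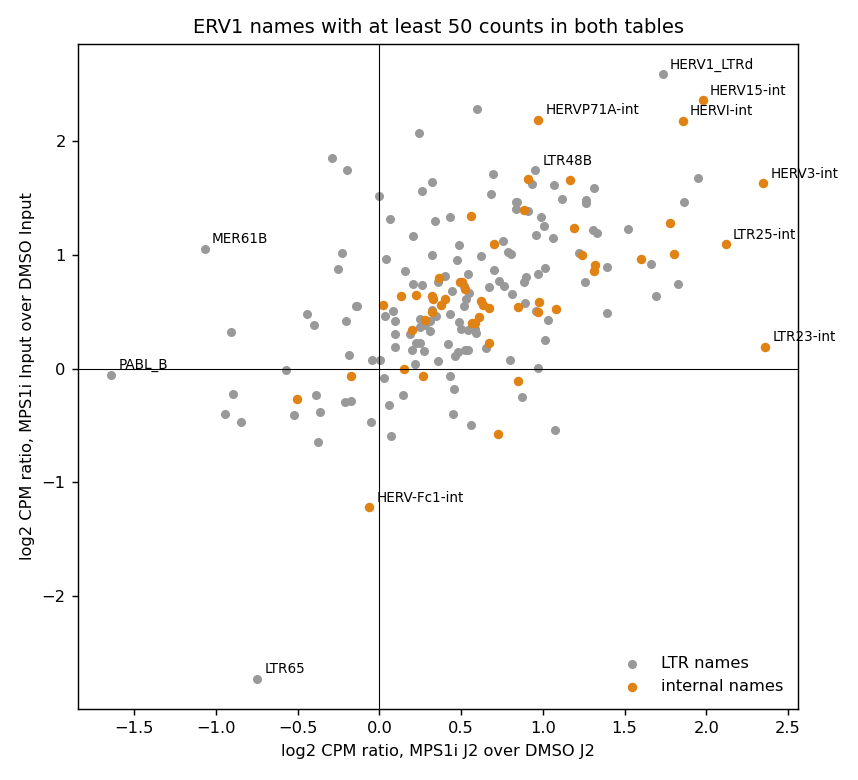
Log2 CPM ratio of MPS1i J2 over DMSO J2 (horizontal axis) against that of MPS1i Input over DMSO Input (vertical axis) for the 192 ERV1 names with at least 50 counts in both tables, with internal parts in orange and LTRs in grey. Most names lie in the upper right, 148 of 192, and MER61B is the only name past the call rule in opposite directions.

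HERV3-int, the internal part of the family whose best known copy encodes an envelope protein (ERV3-1), ranked first among the J2 calls by the interval bound nearest to no change. It had 579 counts in MPS1i J2 and 166 in DMSO J2, a log2 ratio of 2.35 (2.10 to 2.61), and 372 counts in MPS1i Input and 158 in DMSO Input, a ratio of 1.63 (1.36 to 1.91). Its LTR, LTR4, did not follow in J2, with 23 counts in MPS1i J2 and 35 in DMSO J2, with 20 in MPS1i Input and 4 in DMSO Input, too few for a call. Counting at most 1 read per region, HERV3-int had 1.43 in J2 (0.85 to 2.08). Neighbouring regions near CYREN with HERV3-int, HERV15-int, HERV1_LTRd, Harlequin-int and LTR2B held 740 counts in MPS1i J2 and 204 in DMSO J2. In Input they held 457 in MPS1i Input and 193 in DMSO Input. How far the HERV3-int ratio rested on this place was not tested.

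LTR25-int had 200 counts in MPS1i J2 and 67 in DMSO J2 (2.12), and 65 counts in MPS1i Input and 40 in DMSO Input (1.09). The most-read LTR25-int region held 5.99% of its J2 counts, so that its ratio did not rest on 1 region. Several regions can lie in 1 copy, however. Near ZNF550, 15 neighbouring LTR25-int regions with reads held 51 counts in MPS1i J2 and 16 in DMSO J2. LTR23-int had 68 counts in MPS1i J2 and 19 in DMSO J2 (2.36), but 39 in MPS1i Input and 45 in DMSO Input (0.19). HERV1_I-int had 96 counts in MPS1i J2 and 30 in DMSO J2 (2.21), again with no single dominant region (5.56% in the most-read one).

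The HERV-I group, made of HERVI-int, the HERVIP10 internal parts and their LTR10 repeats, had 2533 counts in MPS1i J2 and 1915 in DMSO J2 (0.95, 0.87 to 1.04), and 2105 in MPS1i Input and 1509 in DMSO Input (0.88, 0.78 to 0.97). Of its 9 names tested in J2, 5 were called higher and 0 lower. HERVI-int had 446 counts in MPS1i J2 and 180 in DMSO J2 (1.86), and 283 counts in MPS1i Input and 82 in DMSO Input (2.18). HERVIP10F-int had 385 counts in MPS1i J2 and 185 in DMSO J2 (1.60), measured in 336 regions of which the most-read held 4.04%. HERVIP10FH-int had 1042 counts in MPS1i J2 and 666 in DMSO J2 (1.19), and 548 counts in MPS1i Input and 307 in DMSO Input (1.23). LTR10C went against the group, with 172 counts in MPS1i J2 and 374 in DMSO J2 (−0.57), short of the call rule.

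LTR10 and MER61 copies are known as binding sites of p53. Of their 11 names tested in J2, 3 were called higher (LTR10E, LTR10F and MER61C) and 1 lower (MER61B), and of 9 in Input 4 were higher (LTR10E, MER61B, MER61C and MER61E) and 0 lower. Their sum was 2010 counts in MPS1i J2 and 2266 in DMSO J2 (0.38, 0.29 to 0.46), and 1523 in MPS1i Input and 1361 in DMSO Input (0.56, 0.45 to 0.67), beside 0.47 and 0.59 for all ERV1 regions. LTR10F had 292 counts in MPS1i J2 and 132 in DMSO J2 (1.69), but in regions carrying its name alone the ratio was −0.15, from 53 counts in MPS1i J2 and 86 in DMSO J2. In Input 1 region of 21 bases held 89.6% of the LTR10F counts, with 540 in MPS1i Input and 475 in DMSO Input.

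MER41 LTRs are known as enhancers near interferon-induced genes. The MER41 names summed to 2682 counts in MPS1i J2 and 2652 in DMSO J2 (0.56, 0.49 to 0.64), and 1547 in MPS1i Input and 1455 in DMSO Input (0.49, 0.38 to 0.59). Of the 6 MER41 names tested, 0 were called in J2 and 1, MER41E, was higher in Input, with 42 counts in MPS1i Input and 19 in DMSO Input (1.52). The median over the 6 names was 0.53 in J2 and 0.51 in Input, beside 0.52 and 0.61 over all ERV1 names tested.

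HERV-W copies, of the family from which syncytin-1 derives, had 1020 counts in MPS1i J2 and 886 in DMSO J2 (0.75), and 492 in MPS1i Input and 424 in DMSO Input (0.61), with 0 of their 2 names called. MER50 repeats, LTRs and internal part of the group related to the syncytin-2 family HERV-FRD, had 1353 counts in MPS1i J2 and 2025 in DMSO J2, a ratio of −0.03 that TMM factors turn to 0.16, and 730 counts in MPS1i Input and 790 in DMSO Input (0.28). HERV-E copies had 1867 counts in MPS1i J2 and 1681 in DMSO J2 (0.70), and 1 of 5 names was called in each table, LTR2B in J2 and HERVE_a-int in Input. HERVE_a-int had 201 counts in MPS1i Input and 83 in DMSO Input (1.67).

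Harlequin-int, a mosaic internal part and the fifth largest name by count, had 1779 counts in MPS1i J2 and 1103 in DMSO J2 (1.24, 1.13 to 1.35), and 930 in MPS1i Input and 613 in DMSO Input (1.00, 0.85 to 1.15), just short of the 2-fold rule. It was measured in 851 J2 regions, of which the most-read held 8.02% of its counts. MER52 names had 2045 counts in MPS1i J2 and 1668 in DMSO J2 (0.84), and 2 of 4 were called higher in each table, MER52-int and MER52C in both. MER57 names had 5621 counts in MPS1i J2 and 4939 in DMSO J2 (0.73), with 4 of 10 called higher in J2 and 3 of 7 in Input. Of these counts, 3412 in MPS1i J2 and 3027 in DMSO J2 lay in 1 region of MER57B1 that also carries MER4E1. Its reads are therefore also in the sum of the MER4 names.

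The 13 MER4 names, the largest group by count, had 9537 counts in MPS1i J2 and 10380 in DMSO J2 (0.43), and 5044 in MPS1i Input and 4377 in DMSO Input (0.60). The region shared with MER57B1 held 3412 of these counts in MPS1i J2 and 3027 in DMSO J2. Its Input counterpart held 2375 in MPS1i Input and 1696 in DMSO Input. None of the 13 was called in either table, with medians of 0.25 and 0.30. HUERS-P, PABL and PRIMA names had sums near no change in J2, at 0.14, 0.09 and 0.13, while 0, 1 and 2 of the 4 names in each group were called higher. PRIMA41-int had 157 counts in MPS1i J2 and 92 in DMSO J2 (1.32), and PRIMA4-int 259 in MPS1i J2 and 537 in DMSO J2 (−0.50).

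**Figure D3:**
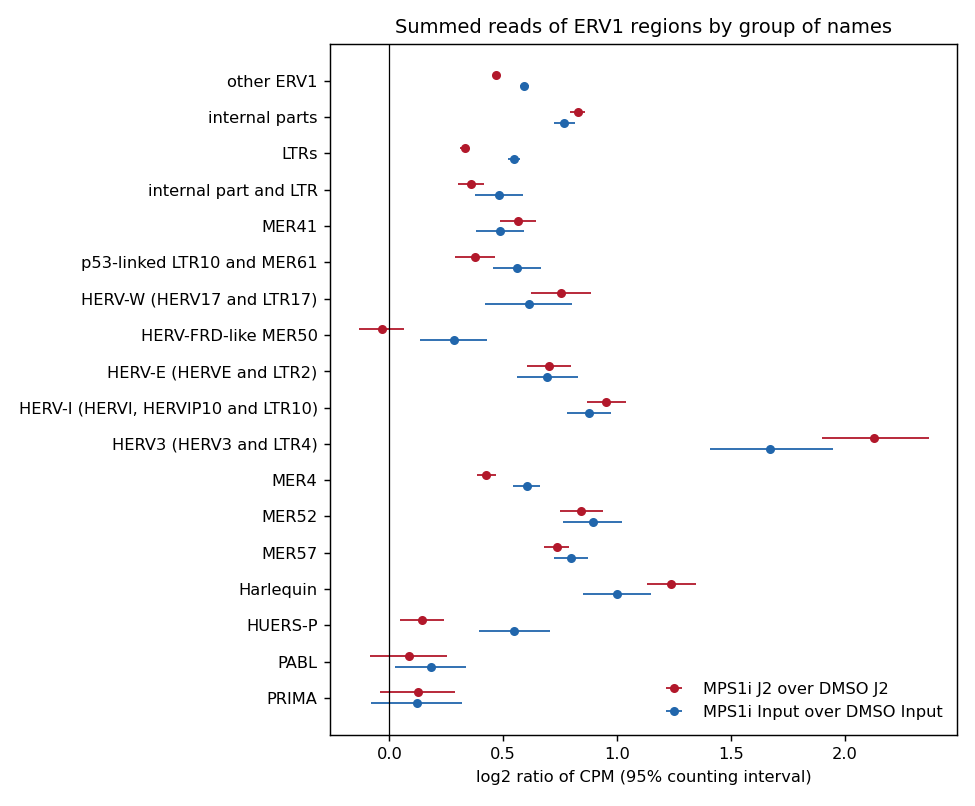
Log2 ratio of CPM (horizontal axis) of summed counts for all ERV1 regions (other ERV1), for internal parts, LTRs and regions with both, and for 14 groups of names, with MPS1i J2 over DMSO J2 in red and MPS1i Input over DMSO Input in blue. Bars are exact 95% counting intervals. HERV3 lies farthest to the right at 2.13 and 1.67, and MER50, PABL and PRIMA lie nearest to no change in J2.

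Other names high by the call rule in J2 were LTR06 (54 counts in MPS1i J2 and 16 in DMSO J2, log2 ratio 2.27), HERV35I-int (213 in MPS1i J2 and 89 in DMSO J2, 1.80) and HERV15-int (106 in MPS1i J2 and 39 in DMSO J2, 1.98). HERV15-int was also called higher in Input, with 138 counts in MPS1i Input and 35 in DMSO Input (2.36). MER84 led the Input calls, with 58 counts in MPS1i Input and 7 in DMSO Input (3.36). HERVP71A-int had 240 counts in MPS1i Input and 69 in DMSO Input (2.19), but in J2 165 counts in MPS1i J2 and 123 in DMSO J2 (0.97), under the 2-fold rule. HERV1_LTRd had 52 counts in MPS1i Input and 11 in DMSO Input (2.59), of which 1 region held 95.2%.

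The 2 names lower in J2 rested largely on 1 region each. PABL_B had 77 counts in MPS1i J2 and 353 in DMSO J2 (−1.64), and without its most-read region 40 in MPS1i J2 and 44 in DMSO J2 (0.41). MER61B had 62 counts in MPS1i J2 and 191 in DMSO J2 (−1.07), 43.5% of them in 1 region. In Input LTR65 had 10 counts in MPS1i Input and 91 in DMSO Input (−2.73), and HERV-Fc1-int, of a small family with few copies, had 79 counts in MPS1i Input and 243 in DMSO Input (−1.22).

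Of the 10 largest names by count, Harlequin-int alone was called in J2 and LTR48B alone in Input. MER4E1 and MER57B1 took 6.52% and 6.13% of all ERV1 counts over the 4 libraries, nearly all from 1 region that carries both names. That region (chr4:103549623-103550586, minus strand, opposite the gene AC105460.2) had 3412 counts in MPS1i J2 and 3027 in DMSO J2 (0.72), and its Input counterpart 2375 in MPS1i Input and 1696 in DMSO Input (0.88). LTR8 had 1102 counts in MPS1i J2 and 1172 in DMSO J2 (0.46), but 2676 in MPS1i Input and 3982 in DMSO Input (−0.18), 77.7% of them in 1 region. MER92B (−0.39), LTR8B (−0.52) and LTR56 (−0.90) had negative J2 ratios, with 91.1%, 75.7% and 77.0% of their J2 counts in 1 region each. Without that region the J2 ratios were 0.26 (−0.15 to 0.67) for MER92B, 0.99 (0.78 to 1.20) for LTR8B and −0.28 (−0.51 to −0.06) for LTR56.

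In some names 1 region held most of the counts. Among names tested, 1 region held over 0.5 of the counts of 36 in J2 and 30 in Input, 6 and 8 of them called. The median share of the most-read region was 23.9% in J2 and 20.9% in Input. With the most-read region of every name left out, the J2 total had a log2 ratio of 0.62.

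**Figure D4:**
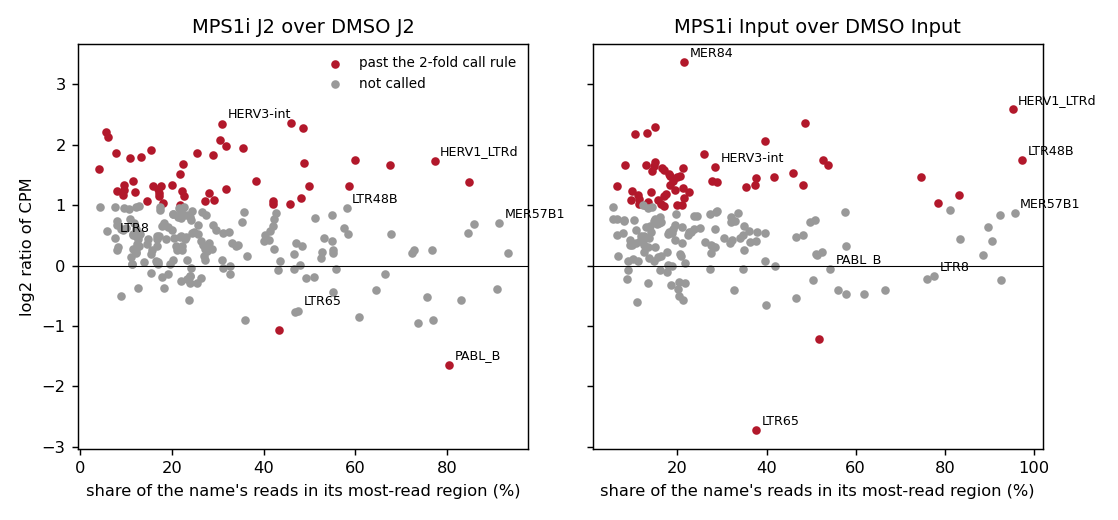
Share of each name's counts held by its most-read region (horizontal axis, percent) against the log2 CPM ratio (vertical axis), for MPS1i J2 over DMSO J2 (left) and MPS1i Input over DMSO Input (right). Red points passed the call rule and grey points did not. Most called names lie in the left part of each plot, while PABL_B in J2 (80.5%) and LTR48B and HERV1_LTRd in Input (97.4% and 95.2%) rest on 1 region.

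At the level of regions, 276 J2 regions had 50 counts or more and held 44.3% of the ERV1 counts. Of these, 51 (18.5%) were higher and 48 (17.4%) lower in MPS1i J2, where 12.5% and 27.2% of all 36852 tested regions were. The median log2 ratio was 0.06 for the ERV1 regions and −0.20 for all regions. Of the 51 higher regions 28 lay outside genes, as did 115 of the 276 tested, and of the 48 lower regions 34 lay on the strand of a gene, as did 144 of the 276. In Input 24 of 108 tested regions (22.2%) were higher and 9 (8.33%) lower in MPS1i Input, against 16.3% and 14.4% of all 16957 tested regions. The other counts lay in regions too thinly read for a call.

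Among single J2 regions, an MER52D copy in an intron of TMEM38B, which encodes an intracellular cation channel (chr9:105712171-105712778, plus strand), had 71 counts in MPS1i J2 and 0 in DMSO J2, at least 34.6-fold higher against a floor of 3 counts. The HUERS-P3-int copy in NRIR (chr2:6839604-6840257, minus strand), just downstream of the NRIR promoter printed above, had 92 counts in MPS1i J2 and 4 in DMSO J2 (4.91, 3.67 to 6.98), and its 3 Input counterparts 18 in MPS1i Input and 0 in DMSO Input. The same region lies 312 bases beyond the end of CMPK2, an interferon-induced mitochondrial kinase gene on the same strand.

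A MER41-int and MER41A region between GML and CDC42P3 (chr8:142965370-142965776, plus strand, outside genes) had 61 counts in MPS1i J2 and 2 in DMSO J2 (5.17), and a neighbouring MER41-int region (chr8:142961086-142962292) had 51 in MPS1i J2 and 3 in DMSO J2 (4.43). A MER39 copy near LINC02233 (chr4:159592538-159593017, minus strand) had 62 counts in MPS1i J2 and 3 in DMSO J2 (4.71), and an Input counterpart 35 in MPS1i Input and 3 in DMSO Input. At NDUFB4, a region of LTR9B, LTR10F and HERVIP10FH-int (chr3:120616518-120617250, minus strand, outside genes) had 50 counts in MPS1i J2 and 4 in DMSO J2 (4.04).

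Several ERV1 regions were called around AKR1B15, an aldo-keto reductase gene. A HERVS71-int region in its intron (chr7:134551376-134551856, plus strand) had 87 counts in MPS1i J2 and 5 in DMSO J2 (4.54), and a HERVI-int and LTR6A region ahead of it (chr7:134547675-134548706) had 87 in MPS1i J2 and 10 in DMSO J2 (3.61). The longer HERVS71-int region downstream (chr7:134552552-134556731) had 646 counts in MPS1i J2 and 381 in DMSO J2 (1.31), and its Input counterparts 240 in MPS1i Input and 137 in DMSO Input. On the opposite strand of this last region, where the LOC105375520 promoter printed above lies, 8 reads were counted in MPS1i J2 and 7 in DMSO J2.

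Regions called lower in J2 included a copy opposite a gene and copies in introns. An MER66B copy opposite PECAM1 (chr17:64406351-64407191, plus strand) had 2 counts in MPS1i J2 and 86 in DMSO J2 (−4.56). The PABL_B copy in an intron of PRKDC, the catalytic subunit of DNA-dependent protein kinase (chr8:47787838-47788903, minus strand), had 37 counts in MPS1i J2 and 309 in DMSO J2 (−2.50). Copies of LTR65 in NUCKS1 (16 in MPS1i J2 and 137 in DMSO J2), of MER4A1 in ADIPOR2 (9 in MPS1i J2 and 81 in DMSO J2) and of MER61B in MRPL42 (12 in MPS1i J2 and 98 in DMSO J2) were also lower, with log2 ratios of −2.51, −2.55 and −2.43.

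The most-read ERV1 region in Input lay opposite a histone gene, and the next in a gene of glutathione synthesis. An LTR48B region of 203 bases opposite HIST1H4I, a replication-dependent histone H4 gene (chr6:27138540-27138742, minus strand), had 4469 counts in MPS1i Input and 1691 in DMSO Input (1.80, 1.72 to 1.88), 97.4% of the LTR48B counts in Input. Its J2 counterpart had 556 counts in MPS1i J2 and 271 in DMSO J2. Without this region, the ERV1 total in Input had a log2 ratio of 0.49 (0.46 to 0.51). The LTR8 copy in GCLC, which encodes the catalytic subunit of the first enzyme of glutathione synthesis (chr6:53557126-53559283, minus strand), had 1904 counts in MPS1i Input and 3266 in DMSO Input (−0.38). In the J2 table that stretch lies in a longer region with other repeat names, outside the ERV1 set, with 38691 counts in MPS1i J2 and 62041 in DMSO J2.

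Other Input regions past the call rule were an MER34 copy 1424 bases beyond the histone gene HIST1H3B (chr6:26029547-26030225, minus strand), with 186 counts in MPS1i Input and 19 in DMSO Input (3.66), and an MER57F copy near UBD, a ubiquitin-like modifier gene induced by inflammatory cytokines (chr6:29552763-29553152, minus strand), with 45 in MPS1i Input and 5 in DMSO Input (3.45). The MER57F copy had 36 counts in MPS1i J2 and 3 in DMSO J2. An LTR37A copy in an intron of APIP had 55 counts in MPS1i Input and 8 in DMSO Input (3.10), an MER51A and MER4A1 region near EXOSC2 had 148 in MPS1i Input and 32 in DMSO Input (2.59), and a HERV15-int and HERV1_LTRd region near CYREN had 52 in MPS1i Input and 8 in DMSO Input (3.02). Lower in MPS1i Input were an MER66B region opposite RN7SKP203 (74 counts in MPS1i Input and 332 in DMSO Input, −1.76), an MER41B copy near SPP1 (10 in MPS1i Input and 66 in DMSO Input, −2.27) and a HERV-Fc1-int copy in LINC01287 (9 in MPS1i Input and 55 in DMSO Input, −2.15).

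ERV1 regions whose nearest gene was interferon-stimulated had larger ratios than the rest. By a list of such genes, 219 J2 regions held 451 counts in MPS1i J2 and 65 in DMSO J2, a log2 ratio of 3.33 (2.97 to 3.74), and the Input regions held 222 in MPS1i Input and 36 in DMSO Input, a ratio of 3.01 (2.51 to 3.57). All regions nearest to these genes, with any repeat or none, had 2.28 in J2 and 2.33 in Input. The remaining ERV1 regions, with 54870 counts in MPS1i J2 and 58332 in DMSO J2, had log2 ratios of 0.46 in J2 and 0.59 in Input, so the totals did not rest on these genes.

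Neighbouring ERV1 regions with reads on the same strand were merged across gaps of up to 10000 bases into stretches of at least 3 regions, a description added after the data were seen. No such stretches were formed of other sequence, so the stretches below are given as values alone. A HERVP71A-int stretch outside genes near LINC00364 (chr13:67340617-67346558, minus strand) had 56 counts in MPS1i J2 and 0 in DMSO J2, at least 27.3-fold higher, and 79 in MPS1i Input and 0 in DMSO Input, at least 34.7-fold higher. Another in LINC01285 (chrX:118885413-118891266, plus strand) had 74 counts in MPS1i Input and 0 in DMSO Input, at least 32.5-fold higher, and 25 in MPS1i J2 and 0 in DMSO J2.

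Of the stretches with HERV-I sequence, 3 that stood among the leading ones were higher in both tables. One near PRG1 with HERVIP10F-int (chr19:43308506-43319600, minus strand) had 104 counts in MPS1i J2 and 5 in DMSO J2 (4.80), and 62 in MPS1i Input and 1 in DMSO Input (5.78). A HERVI-int stretch near KLRF2 (chr12:9897350-9910902, minus strand) had 91 counts in MPS1i J2 and 9 in DMSO J2 (3.82), and 55 in MPS1i Input and 0 in DMSO Input, at least 24.1-fold higher. A HERVIP10FH-int stretch near LOC105374428 (chr4:42314074-42320960, plus strand) had 241 counts in MPS1i J2 and 44 in DMSO J2 (2.99), and 124 in MPS1i Input and 25 in DMSO Input (2.68). Others were lower: one of HERVIP10F-int and LTR10A near HYLS1 had 10 counts in MPS1i J2 and 49 in DMSO J2 (−1.69), one of HERVIP10F-int near KATNBL1 had 10 in MPS1i Input and 46 in DMSO Input (−1.75), and one of HERVIP10B3-int and LTR10G near CACNA2D3 had 17 in MPS1i Input and 46 in DMSO Input (−1.01).

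Stretches in or near interferon-stimulated genes were among the J2 leaders. The MER101 stretch in RSAD2, which encodes the antiviral protein viperin (chr2:6869748-6876473, plus strand), had 106 counts in MPS1i J2 and 5 in DMSO J2 (4.82). The stretch in NRIR had 130 in MPS1i J2 and 7 in DMSO J2 (4.67), and a stretch of 8 ERV1 names near IFIT3, an antiviral RNA-response gene (chr10:89348911-89356135, plus strand), had 60 in MPS1i J2 and 2 in DMSO J2 (5.15). In Input the RSAD2 stretch had 31 counts in MPS1i Input and 2 in DMSO Input, the NRIR stretch 36 in MPS1i Input and 1 in DMSO Input, and the IFIT3 stretch 17 in MPS1i Input and 0 in DMSO Input. The MER41 stretch near CDC42P3, on the whole, had 162 counts in MPS1i J2 and 6 in DMSO J2 (5.19), and 67 in MPS1i Input and 7 in DMSO Input (3.57).

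Lower stretches were found in or near PECAM1 (4 counts in MPS1i J2 and 106 in DMSO J2, −4.02), ADIPOR2 (9 in MPS1i J2 and 88 in DMSO J2, −2.67), MIR6895 (37 in MPS1i J2 and 242 in DMSO J2, −2.14) and SERINC5 (14 in MPS1i J2 and 96 in DMSO J2, −2.19). In Input a HERV17-int stretch near C1QTNF3 had 2 counts in MPS1i Input and 59 in DMSO Input (−4.18), while its J2 counts, 22 in MPS1i J2 and 37 in DMSO J2 (−0.19), did not pass the rule. A HERVP71A-int stretch near PABPC4L had 4 counts in MPS1i Input and 51 in DMSO Input (−3.12), and 48 in MPS1i J2 and 142 in DMSO J2 (−1.01), in the opposite direction to the stretches of the same name near LINC00364 and in LINC01285.

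**Figure D5:**
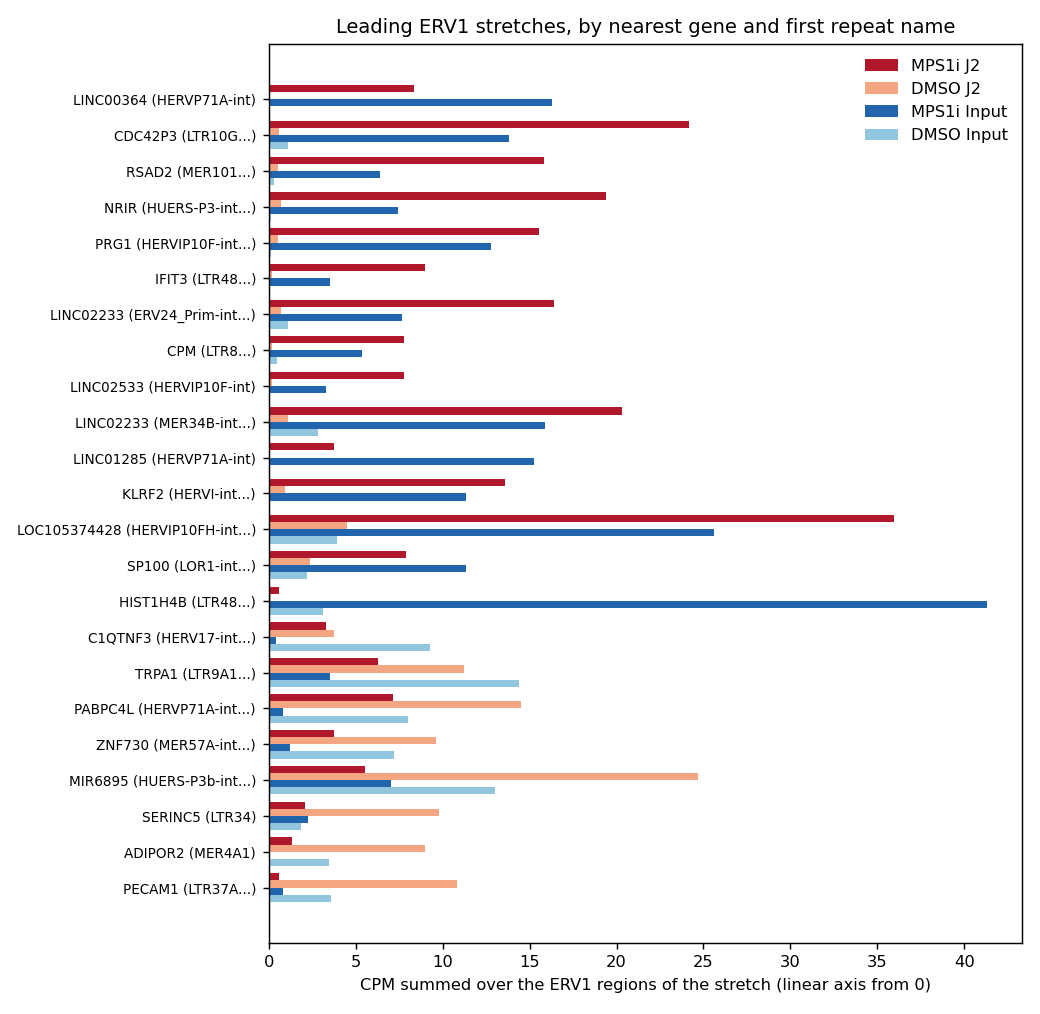
CPM summed over the ERV1 regions of each leading stretch (horizontal axis, linear from 0), by nearest gene and first repeat name, in MPS1i J2, DMSO J2, MPS1i Input and DMSO Input, with the stretch at HIST1H4I left out because its Input level exceeds the scale. In the upper 15 stretches the MPS1i bars exceed the DMSO bars, and in the 8 lowest the DMSO bars are the longer, SERINC5 in Input apart.

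The share of names enriched by J2 was close to that over all repeat names. The ERV1 share of the library in J2 over Input had a log2 ratio of 0.09 in MPS1i cells and 0.21 in DMSO cells, over 6254 kb of covered sequence in J2 and 3336 kb in Input. Without the LTR48B region opposite HIST1H4I these were 0.26 in MPS1i cells and 0.28 in DMSO cells. Scaling without mitochondrial counts turned the ratios of all ERV1 regions, the LTR48B region included, to −0.23 in MPS1i cells and −0.18 in DMSO cells. Of the names tested, 40 of 214 were higher and 15 lower in J2 over Input in MPS1i cells, where 23.5% and 7.87% of all repeat names were, and 48 of 201 were higher and 14 lower in DMSO cells, against 28.6% and 8.52%. Internal parts had ratios of 0.50 in MPS1i cells and 0.44 in DMSO cells, and LTRs −0.17 and 0.04.

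MER34C_, LTR31, MER4C and MER4B-int were among the 5 names most enriched in J2 in each of the 2 conditions. MER34C_ had 238 counts in MPS1i J2 and 28 in MPS1i Input, a log2 ratio of 2.60, and 241 in DMSO J2 and 24 in DMSO Input, a ratio of 2.68. MER4B-int had 1173 counts in MPS1i J2 and 266 in MPS1i Input (1.67), and 1368 in DMSO J2 and 229 in DMSO Input (1.96). MER34C_, MER4C and MER4B-int stood together in 1 J2 stretch near MIR378G, with 453 counts in MPS1i J2 and 628 in DMSO J2. The overlapping Input stretch held MER4C and MER4B-int but not MER34C_, with 153 counts in MPS1i Input and 239 in DMSO Input. How far the enrichment of these names rested on this place was not tested. LTR48B, LTR8, LTR61 and LTR1A1 were among the 5 least enriched in each, LTR48B with 810 counts in MPS1i J2 and 4542 in MPS1i Input (−2.95). The most-read region held 97.4%, 77.7%, 90.5% and 74.6% of the Input counts of these 4 names.

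The change of J2 enrichment, the J2 over Input ratio of MPS1i cells relative to that of DMSO cells, was −0.12 on the log2 scale for all ERV1 regions (−0.15 to −0.10, delta method). Without the LTR48B region opposite HIST1H4I it was −0.02, with an interval of −0.05 to 0.003 that included no change. Of 217 names tested, 14 were higher and 18 lower, where 5.81% and 6.71% of all repeat names were. Internal parts opposite genes (0.35, 0.09 to 0.61) and outside genes (0.21, 0.13 to 0.29) had intervals above no change. Internal parts on the strand of a gene had −0.09 (−0.17 to −0.01). TMM factors computed over regions matched between J2 and Input take the same amount from every change of J2 enrichment. With them the value of internal parts outside genes falls to about no change, and the interval opposite genes includes no change. The TMM factors used above for MPS1i over DMSO were computed separately for J2 and Input. Those add 0.19 to the J2 ratios and take 0.06 from the Input ratios, so they raise every change instead. All ERV1 regions opposite genes had −0.21 (−0.28 to −0.14), and 0.12 (0.04 to 0.19) without that LTR48B region.

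Reads from the opposite strand were rare at the well-read regions. For every 100 reads of the tested regions, opposite-strand regions lying at least 50% inside them held 1.12 in MPS1i J2, 1.53 in DMSO J2, 0.841 in MPS1i Input and 0.727 in DMSO Input. At least 5 opposite reads were counted at 13 of 276 regions in MPS1i J2 and 17 in DMSO J2.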

How the data were processed

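RNA of NCI-H1944 cells was sequenced from 4 libraries (MPS1i J2, DMSO J2, MPS1i Input and DMSO Input, 1 each) made with a stranded total RNA kit, per the labels' protocols. The deposited values are whole-number read counts per stranded region in 2 tables, 1 for the J2 and 1 for the Input libraries, each with its own regions, repeat names per strand, HOMER annotation and nearest gene, per the file headers. Trim Galore, Trimmomatic, cutadapt, STAR, featureCounts, HOMER and the build GRCh38 (hg38) are named per the submitters' processing notes. How regions were called, and how reads that map to many repeat copies or duplicate reads were treated, is not given in the sources used here; near-identical ERV1 copies can share reads, so values of single copies and names are uncertain to that extent. Coordinates are those of the files, whose starts may count from 0.

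Counts were summed per name, group or place and expressed relative to the sum of all counts in the library (CPM). Place (on a gene's strand, opposite a gene, outside genes) was set by any overlap with GENCODE release 29. Log2 ratios carry a pseudocount of 0.5 and exact (Clopper-Pearson) 95% counting intervals without it, so they cover counting error only. The call rule required 50 counts in the 2 libraries, a 2-fold ratio and an interval that excludes 1, and the change of J2 enrichment 50 J2 and 20 Input counts, with a delta-method interval on counts plus 0.5. A fold against 0 counts was set against a floor of 3 counts per library. Tools were Python 3.11.15 with pandas 2.3.3, numpy 2.4.6 and scipy 1.17.1, bedtools 2.31.1, and edgeR 4.0.16 in R 4.3.3 for TMM factors only. The call rule was tested on simulated data.

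Names were chosen by a rule: the 10 largest by count, the 10 highest and lowest in J2, the 5 highest and lowest in Input and in J2 over Input, and groups of related names. For regions it took the 8 highest and 5 lowest in J2 and the 5 highest and 3 lowest in Input. Both were ordered by the interval bound nearest to no change. The most-read regions, the stretches of neighbouring regions and the opposite-strand set were added after values were seen. The members, groups and lists were chosen with earlier results of these data known. Regions in which ERV1 names stand beside other repeats (9479 in J2, 6675 in Input) were left out. 1 marker gene of the leukocyte list is not reported here.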

Additional observations from a re-analysis of the deposited data

Results flagged for a closer look

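MER61B was the 1 name called in opposite directions in the 2 tables. Its log2 ratio was −1.07 in J2, from 62 counts in MPS1i J2 and 191 in DMSO J2, and 1.05 in Input, from 46 counts in MPS1i Input and 29 in DMSO Input. A single MER61B region in MRPL42, with 12 counts in MPS1i J2 and 98 in DMSO J2, held 43.5% of the J2 counts. The difference between the tables was not tested, since each group has 1 library.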

How the results depend on the processing

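No paired analysis was possible because each group has 1 library, and leaving out a replicate was not possible for the same reason. With TMM factors the ERV1 log2 ratio was 0.67 in J2 and 0.53 in Input, and 1 name was lower in J2. Scaled without mitochondrial regions it was 0.52 in Input. Counting at most 1 read per region it was 0.61 in J2, with 27 names higher and 0 lower in J2 and 9 higher and 0 lower in Input. Without the most-read region of each name it was 0.62 in J2, with 0 names lower. With ERV1 copies on either strand it was 0.062 in J2 and 0.16 in Input, with 12 names higher and 5 lower in J2 and 26 higher and 5 lower in Input. The cause of these shifts was not tested, and shares over all repeat names were not computed under these settings.

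With at least 20 counts, 180 J2 regions were higher and 131 lower, and 102 Input regions higher and 48 lower. With no minimum, 829 J2 regions were higher and 263 lower, 1149 Input regions higher and 205 lower, and 5 Input names lower. The shares over all regions and all repeat names at these minima were not computed, so these counts cannot be compared with a background. J2 over Input turned to −0.23 in MPS1i cells and −0.18 in DMSO cells without mitochondrial regions, to −0.13 in MPS1i cells with TMM factors, and over 1344 regions matched one to one to −0.015 in MPS1i cells and 0.11 in DMSO cells. The change of J2 enrichment was −0.043 without mitochondrial regions and −0.33 with TMM factors. For J2 over Input and its change, the TMM factors were those computed over regions matched between J2 and Input. The TMM factors computed separately for J2 and Input, used for MPS1i over DMSO, raise the change instead.

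Among single names, LTR10F in J2 turned to −0.011 with 1 read per region, −0.30 on either strand and −0.15 in regions with 1 name, and HERV1_LTRd in J2 to −0.45 with 1 read per region. HERV1_LTRd in Input turned to −2.41 and PABL_B in J2 to 0.41 without their most-read region. On either strand MER61B turned to 0.13 in J2 and −0.010 in Input, and LTR25-int to −0.21 in Input. Thinning the libraries to equal depth left 62 of 62 values of named ERV1 names and 30 of 31 of named regions within their counting interval. Regions with under 50 counts, which hold most of the ERV1 counts, could not be called at this depth.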
